A study of Mus musculus with 36 samples.

Results

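The windows described here surround the 3' ends of transcripts in the mouse genome. Each window covered 1 kb on either side of the annotated 3' end of a protein-coding RefSeq gene on an autosome (build GRCm38), and windows whose 3' end lay within 2 kb of any gene's 5' end were left out. Of 20661 such genes, 16456 had a strand in the annotation, 4056 of these were too close to a 5' end, and 12400 windows remained. The rule that picks a window uses its position and no lesion value, and 6191 of the genes lay on the plus strand and 6209 on the minus strand. In each window, positions of DNA single-strand breaks (SSBs) and of apurinic/apyrimidinic (AP) sites were counted in 2 kb, in 100 bp steps and by strand.

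The samples came from 6 sources in C57BL/6J males aged 24 months, with no treatment or genetic change named: sperm, mononuclear cells of peripheral blood (PBMCs), bone marrow, liver, heart and brain, with 2 replicates each. Each sample was profiled for SSBs with SSiNGLe and for AP sites with SSiNGLe-AP, which gave 24 libraries, 12 per lesion type. The labels name 2 mice as the source of all tissues, so libraries of different tissues were not independent animals, and the tests below measure the spread between these libraries. Red cells had been lysed in bone marrow, PBMCs had been taken from a Ficoll gradient, and sperm were motile cells of the epididymal tail whose DNA came from a different kit than that of the other tissues, so that kit and tissue cannot be told apart for sperm. RNA samples of the same tissues were left out, and a list of DNA lesions holds no marker that could check a tissue label.

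An SSB is an interruption of 1 strand of DNA, and an AP site is a sugar that has lost its base; both arise by spontaneous decay, by oxidation and as intermediates of base excision repair. Transcripts end where the nascent RNA is cleaved and polyadenylated. Cleavage follows a short A-rich signal (the hexamer AAUAAA and its variants) that lies a little upstream of the cut and is helped by a U- or GU-rich element just downstream of it, while RNA polymerase II runs on beyond the cut before it is released. The 3' end of a gene is therefore a place where base composition changes abruptly and where transcription continues past the mature transcript. No genome sequence was used here, so the bases of the windows were not examined.

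The SSB libraries held 225011 to 1041983 positions and the AP libraries 460719 to 963258. Of these, 3667 to 16739 SSB positions and 7567 to 16863 AP positions per library fell in the 3' windows. At this depth a single library had a position in 24.6% to 67.5% of the windows for SSBs and in 43.4% to 67.6% for AP sites, so levels are given as densities summed over all windows. A density is the number of positions per bp divided by that found 90 to 110 kb away on both sides of the same 3' ends in the same library, and a value of 1 means no difference from that surrounding. Replicates of a tissue had no more than 0.396% of the smaller list in common, so none was a duplicate of another.

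Both lesions were denser at 3' ends than in the surroundings in every library. For SSBs the density was 1.30 ± 0.018 (SD, n = 12), with the lowest value of 1.27 in a liver library and the highest of 1.33 in a sperm library. For AP sites it was 1.38 ± 0.014 (SD, n = 12), between 1.36 and 1.41. The ranges of the lesion types did not overlap, and the AP density was the higher in 12 of 12 samples. The mean difference on the log2 scale, SSB minus AP, was -0.09 ± 0.019 (SD), with an adjusted p of 0.00104 when the signs of the 12 pairs were permuted (exact sign-flip test, two-sided). The unadjusted p of 0.000488 is the smallest that this test can give. The adjustment (Benjamini-Hochberg) covered 17 tests on these windows.

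The 3' density changed little from tissue to tissue. For SSBs, the replicates stood at 1.29 and 1.31 in bone marrow, 1.31 and 1.30 in brain, 1.27 and 1.28 in heart, 1.30 and 1.27 in liver, 1.28 and 1.31 in PBMCs and 1.33 and 1.30 in sperm. For AP sites the tissue means ran from 1.37 in brain to 1.39 in sperm. The share of variance (eta squared of the log2 density) that lay between tissues was 0.544 for SSBs and 0.366 for AP sites. Neither passed when the libraries were re-paired in every possible way (exact permutation, one-sided), with adjusted p = 0.479 and 0.712. Scaled to 5 to 10 kb away instead, where the density was still 1.13 for both lesions, the SSB share was 0.799 with an unadjusted exact p of 0.0481.

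**Figure D1:**
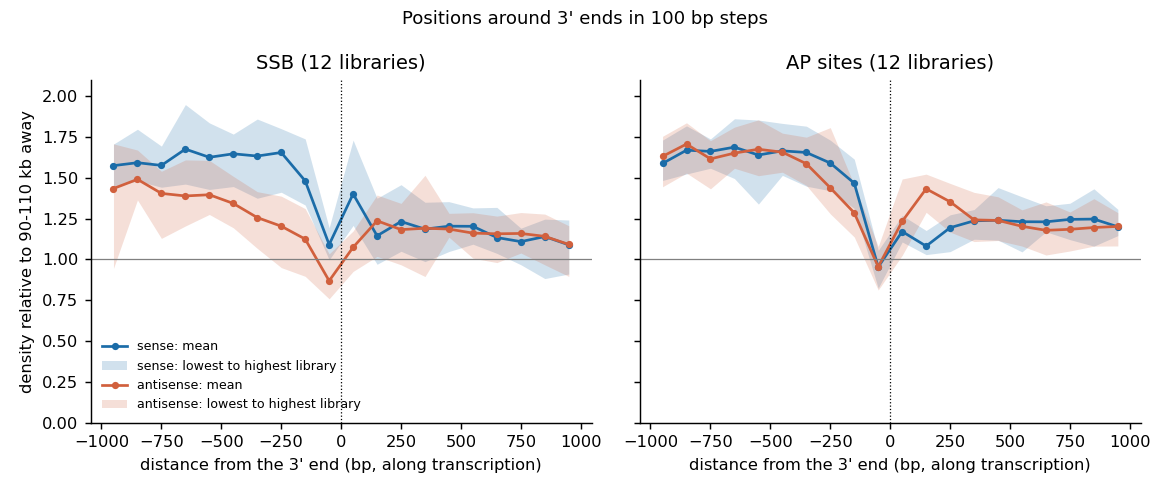
Density of SSBs (left) and AP sites (right) in 100 bp steps from 1 kb before to 1 kb after the 3' end, on the strand of the gene (sense, blue) and the other strand (antisense, orange), relative to 90 to 110 kb away; lines are means of 12 libraries and bands run from the lowest to the highest library. With strands joined, the step that ends at the 3' end is the lowest for both lesions, at a mean of 0.980 for SSBs and 0.954 for AP sites. The SSB sense curve alone is as low at its last step (1.089) as there (1.091). The SSB curves of the strands are apart before the end.

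The excess was larger before the 3' end than after it. In the last 1 kb of the genes the SSB density was 1.42, with library values from 1.37 to 1.45, and in the 1 kb that follows it was 1.17, from 1.12 to 1.22. For AP sites the corresponding densities were 1.54 (1.5 to 1.58) and 1.23 (1.20 to 1.27). The sides did not overlap among the libraries of either lesion. The log2 difference, upstream minus downstream, was 0.28 ± 0.049 for SSBs and 0.33 ± 0.033 for AP sites (SD, n = 12), positive in 12 of 12 libraries each, with an adjusted p of 0.00104 for both in exact sign-flip tests. With only 500 bp on each side the differences were 0.14 and 0.20, still positive in 12 of 12 libraries each. The fall across the end was steeper for AP sites in 9 of 12 samples, with a log2 difference, SSB minus AP, of -0.0455 ± 0.060 (adjusted exact p = 0.0374). That difference between lesions did not pass the threshold with windows kept 5 kb from 5' ends (unadjusted exact p = 0.114), nor without bone marrow replicate 1, liver replicate 1, sperm replicate 1 or sperm replicate 2 (unadjusted exact p of 0.0508 to 0.0527).

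Between these sides lay a narrow trough. From 1 kb to 500 bp before the end the density was 1.52 ± 0.031 for SSBs and 1.65 ± 0.038 for AP sites. In the last 100 bp it dropped to 0.980 ± 0.054 and 0.954 ± 0.059, and in the next 100 bp it was back at 1.24 ± 0.083 and 1.20 ± 0.052. The last 100 bp were below that level in 24 of 24 libraries. Their density divided by it was 0.647 ± 0.038 for SSBs and 0.578 ± 0.034 for AP sites. The same step was the lowest of the 20 steps of the profile in all 12 AP libraries and in 9 of 12 SSB libraries. The 3 exceptions, both PBMC libraries and sperm replicate 2, had their lowest step 601 bp or more after the end.

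In 10 bp steps the trough had its bottom at offsets -29 to -20, where offset 0 is the last base of the gene, on both strands and for both lesions. This interval was picked out after the profile was seen, and its values are given without a test. The SSB density there was 0.488 on the sense strand and 0.482 on the antisense strand, from 85 and 84 positions over all 12 libraries. The AP density was 0.382 on the sense strand, from 103 positions, and 0.572 on the antisense strand, from 154. Only 166 of the 12400 windows held an SSB in these 10 bp and 237 held an AP site.

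The trough was present in each library taken alone. The interval used for this was also chosen after the profile of these same libraries was seen, so the counts of libraries are descriptions and not tests. From -49 to -10 the density was 0.677 ± 0.086 for SSBs, with values from 0.522 to 0.799, and 0.648 ± 0.072 for AP sites, from 0.530 to 0.748. It was below that of the stretch 200 to 100 bp before the end and below that of the 200 bp after the end in 24 of 24 libraries. The ratio to the 200 to 100 bp level was 0.522 ± 0.078 for SSBs and 0.473 ± 0.061 for AP sites. A library had only 34 to 188 SSB positions and 72 to 167 AP positions in these 40 bp, which limits the precision for a tissue.

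Windows of different kinds shared the trough. With the libraries of an assay summed, the SSB density from -49 to -10 was 0.769 in genes under 20 kb and 0.595 in genes of 50 kb or longer, and the AP density was 0.728 and 0.608. Plus strand genes stood at 0.657 for SSBs and 0.665 for AP sites, and minus strand genes at 0.713 and 0.630. Windows with no other 3' end within 2 kb stood at 0.661 and 0.629. All of these were below the level of 1 and below the same windows' density 200 to 100 bp before the end, which ran from 1.19 to 1.44.

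On the antisense strand a further dip followed the end. From 11 to 30 bp after it, the antisense SSB density was 0.586 ± 0.170 against 1.24 ± 0.116 at 101 to 200 bp, lower in 12 of 12 libraries. The antisense AP density was 0.737 ± 0.144 against 1.43 ± 0.081, also lower in 12 of 12. On the sense strand the same 20 bp had an SSB density of 1.38 ± 0.361 and an AP density of 1.03 ± 0.149. The AP sense curve dipped too, with libraries summed, to 0.891 at 11 to 20 bp, from 240 positions. It stood at 1.20 in the 10 bp before and 1.18 in the 10 bp after. Over the 20 bp the antisense value was the lower in 12 of 12 SSB libraries and in 10 of 12 AP libraries, on 206 SSB and 391 AP antisense positions in all. This interval too was chosen after the profile was seen.

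**Figure D2:**
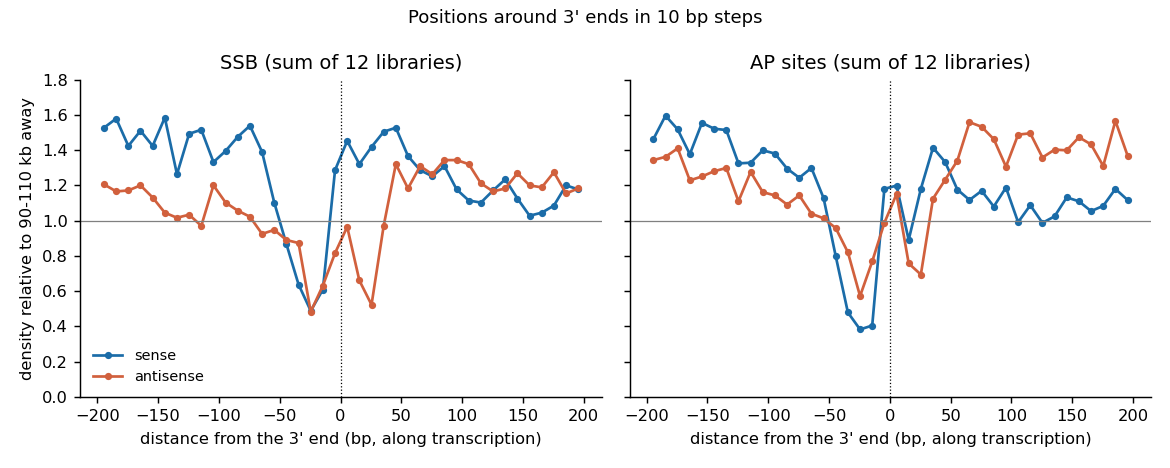
Density in 10 bp steps within 200 bp of the 3' end, with the 12 libraries of SSBs (left) and of AP sites (right) summed and the strands drawn apart (sense blue, antisense orange), relative to 90 to 110 kb away. All 4 curves have their lowest point at -29 to -20 (0.488, 0.482, 0.382 and 0.572 in the order SSB sense, SSB antisense, AP sense, AP antisense), and both antisense curves dip again 11 to 30 bp after the end. The AP sense curve has a smaller dip at 11 to 20 bp (0.891).

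SSBs were listed more often on the strand of the gene, and AP sites were not. Over the whole window the sense density of SSBs was 1.37, from 1.34 to 1.42, and the antisense density was 1.22, from 1.15 to 1.28. The lowest sense value was above the highest antisense value. The log2 difference was 0.16 ± 0.060 (SD, n = 12), positive in 12 of 12 libraries, with an adjusted p of 0.00104 in the exact sign-flip test. For AP sites both strands had a density of 1.38, with a log2 difference of -0.00058 ± 0.040 that was positive in 6 of 12 libraries (adjusted exact p = 0.964). The difference between the lesions in this contrast was 0.16 ± 0.076, in the same direction in 12 of 12 samples, with an adjusted p of 0.00104, and it was 0.25 with 500 bp on each side. The strand is used as the list gives it, and the sources used here do not say which strand of the damaged duplex it names.

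The SSB strand difference lay before the end and in the first 100 bp after it. The number of sense positions divided by antisense positions was 1.21 ± 0.045 in the last 1 kb of the gene, above 1 in 12 of 12 libraries, and 1.02 ± 0.061 in the 1 kb after it, above 1 in 9 of 12. It was 1.13 ± 0.081 from 1 kb to 500 bp before the end and 1.30 ± 0.072 from there to 100 bp before it. In the first 100 bp after the end it was 1.31 ± 0.185, from 1.06 to 1.64 and above 1 in every SSB library. Beyond 300 bp it was 0.999 ± 0.050. In the 1 kb after the end the values were 1.14 and 1.09 in PBMCs, 1.01 and 1.11 in sperm, 1.04 and 1.02 in heart, 1.01 and 1.01 in brain, 0.974 and 1.0 in liver and 0.938 and 0.959 in bone marrow. No test of tissues was made on this measure.

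The strand difference of AP sites was clearest in a short stretch after the end. From 101 to 300 bp after it the antisense density was 1.39 ± 0.064 and the sense density 1.14 ± 0.049, and the antisense strand was the higher in 12 of 12 AP libraries. The corresponding SSB densities were 1.21 ± 0.087 and 1.19 ± 0.102, with the antisense strand higher in 8 of 12. From 500 to 100 bp before the end, AP sense positions exceeded antisense ones by a ratio of 1.07 ± 0.070, in 11 of 12 libraries. From 1 kb to 500 bp before it the ratio was 0.997 ± 0.052. These stretches were read off the profile and not tested.

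The strand difference of SSBs was seen for genes on either strand of the assembly. The SSB ratio of sense to antisense was 1.15 ± 0.070 in the plus strand genes and 1.09 ± 0.053 in the minus strand genes, above 1 in 12 of 12 libraries for each. It was 1.09 ± 0.053 in genes under 20 kb and 1.16 ± 0.084 in genes of 50 kb or longer, also above 1 in all 12. At 5' ends, in the first 1 kb of genes, the SSB ratio was 1.16 ± 0.066 and above 1 in 12 of 12 libraries as well, so a sense excess was seen at either end. The AP ratio there was 0.954 ± 0.061.

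**Figure D3:**
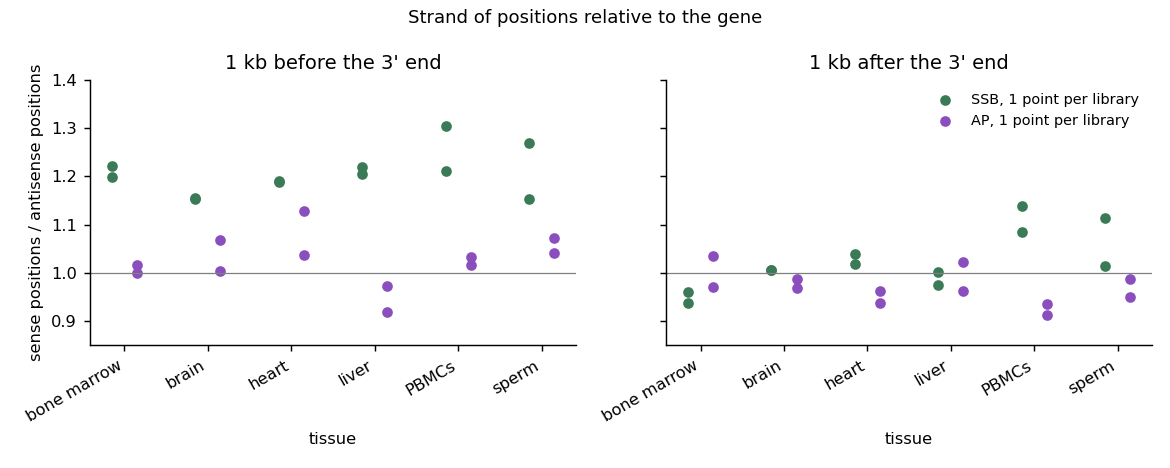
Number of sense positions divided by antisense positions in the 1 kb before (left) and after (right) the 3' end, by tissue, with 1 point per library (SSB green, AP purple, 2 libraries per tissue) and a grey line at 1. Before the end all 12 SSB points lie above 1, between 1.15 and 1.30, while AP points lie between 0.920 and 1.13; after the end 9 of 12 SSB points lie above 1 and 10 of 12 AP points below it.

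Set beside the 5' ends of the same kind of gene, the 3' windows had the lower density and the smaller spread. The 5' windows, 12261 in number and without those within 2 kb of a 3' end, shared 10624 genes with the 3' windows. Their SSB density was 2.00 ± 0.324, from 1.56 to 2.61, against 1.30 at 3' ends. Their AP density was 1.5 ± 0.076, from 1.38 to 1.60, against 1.38. On the log2 scale the 3' minus 5' difference was -0.61 ± 0.243 for SSBs, negative in 12 of 12 libraries (adjusted exact p = 0.00104). For AP sites it was -0.12 ± 0.077, negative in 11 of 12 (adjusted exact p = 0.00277). The AP difference grew to -0.31 with scaling to 5 to 10 kb away and to -0.31 with 500 bp on each side, negative in 12 of 12 libraries in either case. The gap was wider for SSBs in 12 of 12 samples, with a log2 difference between the lesions of -0.49 ± 0.235 (adjusted exact p = 0.00104).

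Tissues differed in this gap for SSBs, and it was the 5' density that moved. The SSB density at 5' ends was 2.61 and 2.36 in bone marrow, 2.20 and 2.12 in heart, 2.06 and 2.14 in liver, 2.03 and 1.93 in brain, 1.69 and 1.64 in sperm and 1.56 and 1.62 in PBMCs. The 3' density of the same libraries stayed between 1.27 and 1.33. Of the variance of the 3' minus 5' difference, 0.963 lay between tissues for SSBs (adjusted exact p = 0.00104) and 0.483 for AP sites (adjusted exact p = 0.533). Tissues next to each other in the order of 5' densities were not tested against each other.

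**Figure D4:**
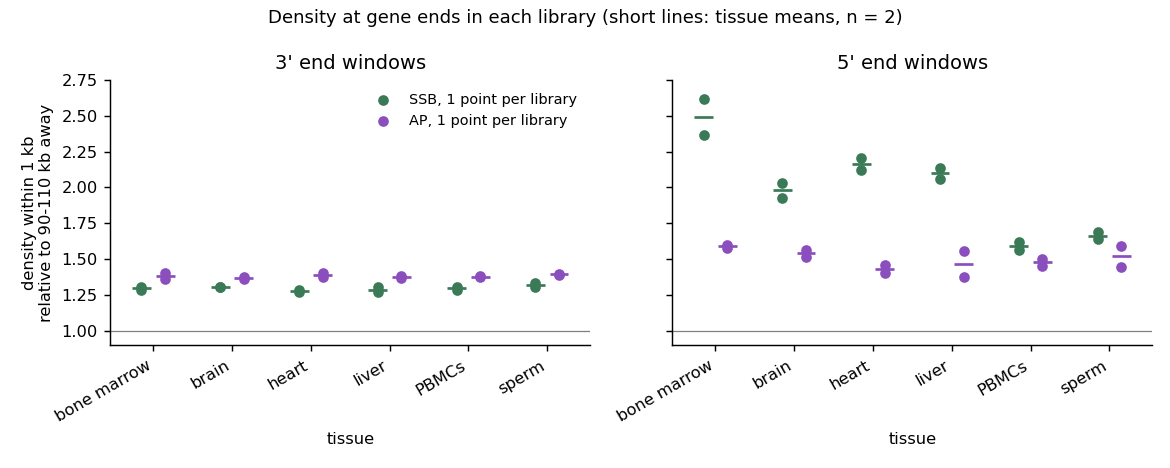
Density within 1 kb of the 3' ends (left) and of the 5' ends (right) relative to 90 to 110 kb away, by tissue; each point is a library (SSB green, AP purple) and short lines are means of 2. SSB points at 3' ends stay between 1.27 and 1.33 in all tissues, while at 5' ends they run from 1.56 in PBMCs to 2.61 in bone marrow.

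Scaled to the surroundings of their own 3' ends, genes of different length had similar densities. The SSB density was 1.32 ± 0.029 at the 3' ends of 5653 genes under 20 kb, 1.25 ± 0.029 for 3382 genes of 20 to 50 kb and 1.29 ± 0.030 for 3365 genes of 50 kb or longer. The AP densities were 1.4 ± 0.019, 1.36 ± 0.024 and 1.37 ± 0.029. Long minus short genes gave -0.03 ± 0.047 on the log2 scale for SSBs (negative in 9 of 12 libraries, adjusted exact p = 0.0374) and -0.03 ± 0.033 for AP sites (negative in 11 of 12, adjusted exact p = 0.00415). Scaled to 5 to 10 kb away, the AP difference was -0.13, negative in 12 of 12 libraries. With 500 bp on each side the differences were -0.0507 and -0.0443, and with only protein-coding 5' ends excluded the SSB difference was -0.0544. Both differences took the opposite sign in windows over 2 kb from other 3' ends. They were 0.0142 for SSBs (unadjusted exact p = 0.443) and 0.0219 for AP sites, positive in 10 of 12 libraries (unadjusted exact p = 0.0381). The SSB difference also lost its call without heart replicate 1, PBMC replicate 1, sperm replicate 1 or sperm replicate 2 (unadjusted exact p = 0.0527 each).

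A neighbouring 3' end went with a higher density. In the 1987 windows with another gene's 3' end within 2 kb, the SSB density was 1.5 ± 0.049 and the AP density 1.62 ± 0.041. In the other 10413 windows it was 1.25 ± 0.026 and 1.33 ± 0.018, and the ranges of the libraries did not overlap for either lesion. Windows with a neighbour lay in regions whose density 90 to 110 kb away was itself 1.15 (SSBs) and 1.12 (AP sites) times that of all windows, and the part of neighbouring genes or base composition in this was not tested. Such windows can overlap, and a position in the overlap was counted in each of them. Their SSB ratio of sense to antisense was 1.05 ± 0.042, above 1 in 10 of 12 libraries, against 1.14 ± 0.057 in windows without a neighbour, above 1 in 12 of 12. By chromosome, SSB means ran from 1.25 on chromosome 11 to 1.36 on chromosome 7 and AP means from 1.34 on chromosome 10 to 1.46 on chromosome 16, and every library was above 1 on each of the 18 chromosomes with windows. At the limit of the rule, SSB and AP densities were 1.36 and 1.43 in 1268 windows with a 5' end 2 to 3 kb away, just inside, and 1.52 and 1.56 in 1595 windows with such an end 1 to 2 kb away, just outside.

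Single windows held few positions. Summed over 12 libraries, a window had a median of 7 SSB positions (5th to 95th percentile 1 to 16, highest 71) and of 11 AP positions (2 to 24, highest 111). No SSB was listed in 470 windows and no AP site in 294, and 198 windows had neither. In those 198 the median number of positions 90 to 110 kb away, over all 24 libraries, was 105.5 per 40 kb, against 284 for the other windows. The 1% of windows with most positions held 3.30% of SSB and 2.87% of AP positions. Across windows, SSB and AP numbers had a Spearman correlation of 0.652 (n = 12400), and the sums of replicates 1 and 2 had one of 0.503 for SSBs and 0.613 for AP sites; windows share the libraries, their mappable bases and their base composition, and no p is given.

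**Figure D5:**
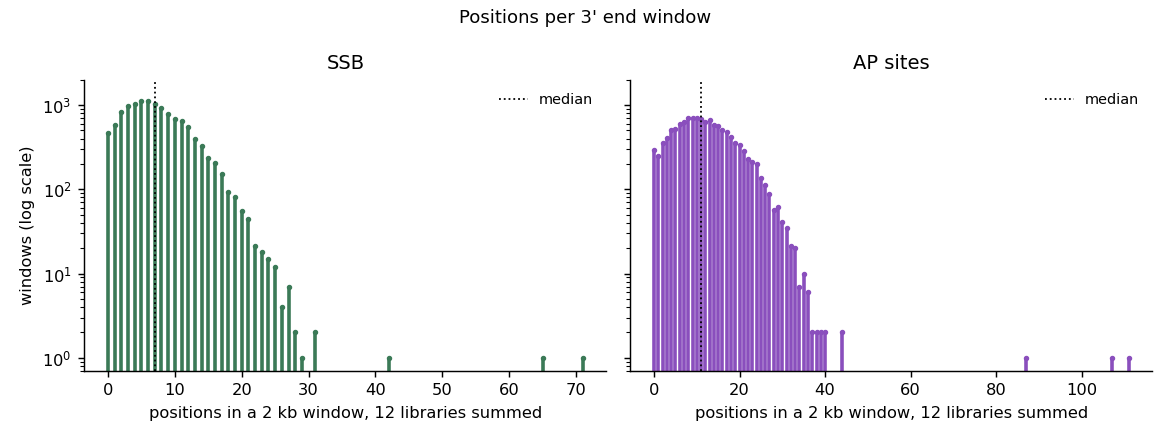
Number of windows (log scale) by the number of positions in the 2 kb window, summed over the 12 SSB libraries (left) and the 12 AP libraries (right), with the median (7 and 11) dotted. Most windows form 1 broad hump, and Hjurp, Mroh2a and A530032D15Rik stand apart on the right, at 71, 65 and 42 SSB positions and 111, 107 and 87 AP positions.

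The windows with most positions were the same for both lesions at the top. The 3' end of Hjurp, which encodes the chaperone of the centromeric histone CENP-A, had 71 SSB positions (lowest library 0, median 5, highest 12) and 111 AP positions (5, 8 and 16) in chromosome 1, 88257856 to 88259855, minus strand. Its neighbour Mroh2a, whose 3' end lies 3433 bp away in 88261290 to 88263289 on the plus strand, had 65 SSB positions (1, 5.5 and 8) and 107 AP positions (2, 9.5 and 16). A530032D15Rik, also on chromosome 1 (85087139 to 85089138, minus strand), had 42 SSB positions (0, 3 and 9) and 87 AP positions (3, 7.5 and 13). These 3 windows held 5.78 to 9.77 times the mean SSB number and 7.23 to 9.23 times the mean AP number. Every AP library had positions in all 3, and 11, 12 and 9 of the 12 SSB libraries had positions in Hjurp, Mroh2a and A530032D15Rik. In A530032D15Rik, 73 of the 87 AP positions lay after the end and 25 in a single 100 bp step.

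The remaining windows of the top 10 were lower, with 27 to 31 SSB positions and 38 to 44 AP positions. For SSBs they were Prtn3, which encodes the neutrophil granule protease proteinase 3, and Skor1, a transcriptional corepressor, with 31 positions each, then the kinase gene Aatk with 29, Stat6, the transcription factor of interleukin-4 signalling, and Tmem267 with 28, and 1700001O22Rik and Ccdc124 with 27. Prtn3 (chromosome 10, 79882175 to 79884174, plus strand) had 7 and 2 SSB positions in bone marrow, where its mRNA is made, and 0 to 5 in the other libraries, so the tissues overlapped. For AP sites they were the zinc transporter gene Slc30a4 and Smok2b with 44, Stkld1 and the kinase gene Tnk1 with 40, Tcirg1, which encodes a subunit of the vacuolar proton pump, and Tmem267 with 39, and C130026I21Rik with 38. Tmem267 was the only name on both lists beside the first 3. In Slc30a4 40 of 44 AP positions, and in C130026I21Rik all 38, lay before the end. A530032D15Rik and C130026I21Rik lie in the same cluster of closely similar genes on chromosome 1. How repeated sequence was handled is not given in the sources used here, so their numbers are uncertain. The same limit holds for Hjurp and Mroh2a, which were high for both lesions and on both strands. Hjurp had 30 sense and 41 antisense SSB positions, and 64 and 47 AP positions. Mroh2a had 31 and 34 SSB positions, and 51 and 56 AP positions. Whether repeated sequence raised these numbers was not tested.

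Genes of 3' end formation held as many SSB positions at their own 3' ends as other genes, and fewer AP positions, by their medians. Of 20 genes for cleavage, polyadenylation and termination factors, 15 had a window, with a median of 7 SSB and 6 AP positions against 7 and 11 over all windows. Their density relative to 90 to 110 kb away from the 3' ends of all windows was 1.22 ± 0.227 for SSBs and 0.989 ± 0.282 for AP sites (n = 12). The densities of the other gene lists below are on the same scale, so the regional level around the listed genes is part of them. Papola, the poly(A) polymerase gene, led for SSBs with 13 positions, before Cpsf4 (10) and Clp1 (9), which encode subunits of the cleavage machinery. Cstf1, a subunit of the cleavage stimulation factor, led for AP sites with 26, before Cpsf7 (16) and Cstf3 (15).

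Genes of single-strand break and base excision repair had 19 windows among 25 genes, with a median of 9 SSB and 13 AP positions. Their density was 1.62 ± 0.422 for SSBs and 1.64 ± 0.346 for AP sites. Apex1, the AP endonuclease gene, and Xrcc1, the scaffold of SSB repair, had 17 SSB positions each, and Nthl1, a DNA glycosylase gene, had 14. For AP sites the flap endonuclease gene Fen1 and the glycosylase gene Neil1 had 24 each and Apex1 had 23. No library had more than 5 positions of the lesion named in any of these windows.

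Abundant transcripts of every cell had only 8 windows among 30 genes, with a median of 9 SSB and 18.5 AP positions. The density was 1.83 ± 0.586 for SSBs and 2.11 ± 0.659 for AP sites, from 80 and 145 positions. Eno1 and Aldoa, genes of glycolysis, had 15 and 14 SSB positions and the ferritin gene Fth1 had 14. Eef1a1, the translation elongation factor gene, had 25 AP positions, Aldoa 22 and Fth1 21.

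For none of the 6 tissues did its libraries lie apart and above the others at the 3' ends of genes listed for it. The RNA samples were left out, so the expression of these genes was not checked. In liver, the 18 windows of 29 liver genes had SSB densities of 1.24 to 1.85, within the 0.218 to 2.02 of the other tissues, and AP densities of 1.39 to 1.56, within 0.763 to 1.64. Heart genes (18 windows of 27) had SSB values of 1.53 to 1.72 in heart against 0.918 to 2.20 elsewhere, and AP values of 1.26 to 1.91 against 0.948 to 2.29. Brain genes (15 of 28) had SSB values of 1.34 to 2.01 in brain against 1.32 to 2.20, and AP values of 1.21 to 1.33 against 0.982 to 2.73. Bone marrow genes (13 of 25) had SSB values of 2.05 to 2.71 in bone marrow against 0.254 to 2.38, and AP values of 1.18 to 1.29 against 0.698 to 2.17. Sperm genes (12 of 28) had SSB values of 0.951 to 1.65 in sperm against 0.839 to 2.53, and AP values of 1.20 to 2.57 against 0.754 to 1.89. In PBMCs, the 15 windows of 30 PBMC genes had the lowest SSB values, 0.290 and 0.661 against 0.784 to 2.01, but from 1 and 3 positions, and AP values of 1.0 to 1.21 against 0.151 to 1.72.

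The members with most positions in these lists showed the same thinness. For SSBs they were Hpd, Ahsg and Pck1 (liver, 15, 14 and 10 positions), Tnnt2, Myh6 and Myl3 (heart, 24, 18 and 18), Ptgds, Slc17a7 and Camk2b (brain, 21, 17 and 14), Prtn3, Chil3 and Lcn2 (bone marrow, 31, 12 and 12), Zap70, Cd5 and Cd3d (PBMC, 21, 13 and 9) and Dnah1, Smcp and Ldhc (sperm, 18, 14 and 12). Zap70, the kinase of the T cell receptor, had 0 of its 21 SSB positions in PBMCs, and Tnnt2, cardiac troponin T, had 5 of its 24 in heart. These counts are not corrected for depth. The PBMC SSB libraries held 225011 and 305827 positions in all, and the heart ones 446381 and 1041983. For AP sites they were Ahsg, Fgb and Tat (24, 24 and 19), Mybpc3, Myh6 and Myl2 (28, 22 and 22), Ptgds, Mog and Camk2b (32, 23 and 21), Lcn2, Fcnb and Chil3 (21, 20 and 18), Cd3e, Klrb1c and Lef1 (18, 18 and 13) and Dnah1, Hspa1l and Akap3 (32, 18 and 15). The windows of all these genes had 0 positions in at least 1 library of the same lesion.

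No single window was called different between tissues. With edgeR's quasi-likelihood F test over the 6 tissues and Benjamini-Hochberg adjustment, 0 of 3543 windows with at least 10 SSB positions passed an adjusted p of 0.05 (0% called), and 42 were under 0.05 before adjustment. Among AP windows 0 of 7450 passed (0% called), with 131 under 0.05 before adjustment. DESeq2 called none for either lesion and had 0 under 0.05 before adjustment in both. These shares before adjustment were all below 0.05, the share that tests at their nominal level give with no difference. At these counts the tests could call little, so the lack of calls does not show that windows were alike across tissues. The 5 SSB windows of smallest p were A530032D15Rik, Nanos3, Cd209g, Smad3 and Cryl1, all with an adjusted p of 0.999 by edgeR. A530032D15Rik had 9 and 8 SSB positions in liver, 1 and 7 in heart, 4 and 4 in brain, 1 and 6 in bone marrow, 2 and 0 in PBMCs and none in sperm. For AP sites they were Tmem104, Rassf7, Myh10, Uckl1 and Taar2, and Tmem104 had 5 and 7 AP positions in bone marrow against 0 to 3 in the other libraries.

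Between the lesions no single window passed either. With tissue as a covariate, 0 of 10055 windows passed (0% called) in edgeR, and 1343 had an unadjusted p under 0.05, or 586 with library size in place of TMM scaling. DESeq2 called none, with 170 at an unadjusted p under 0.05, which is again a share below 0.05. TMM scaling put the median log2 difference of all windows, SSB minus AP, at -0.54, and library size alone put it at -0.07, so values of windows are given as CPM on library size, which TMM does not touch. The ranking of windows, the edgeR adjusted p and the calls with a sample left out still come from the TMM fit, whose median lay further towards AP sites. The windows of smallest p with more SSBs were Dpf1, Papola, Zfp120, Dhx34 and Atp8b4. Dpf1, a chromatin remodelling subunit of neurons, had 17 SSB and 2 AP positions (3.10 ± 2.49 and 0.226 ± 0.527 CPM, SD, n = 12; edgeR adjusted p = 0.169), and Papola had 13 and 2 (adjusted p = 0.261). Those with more AP sites were Kcne3, Gpx2, Glycam1, Mettl6 and Dtymk, all with an edgeR adjusted p of 0.150. Kcne3, a potassium channel subunit gene, had 3 SSB and 32 AP positions (0.757 ± 1.44 and 3.34 ± 2.39 CPM), and Gpx2, a glutathione peroxidase gene, had 1 and 22. Mettl6 and Dtymk had 0 SSB positions in all libraries, against 14 and 15 AP positions. Leaving out heart replicate 2 gave 4 calls and leaving out bone marrow replicate 1 gave 1, all with more AP sites.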

How the data were processed

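The 3' windows and gene lists described here were chosen with earlier results of these data known. The authors deposited, for each library, a list of nucleotides, each with its strand and raw counts, not normalized and not pooled. Per the labels, these are SSB and AP site profiles of the same samples, and mm10 and GRCm38 are the builds named; aligner and filters were not given in the sources used here. Each listed position was counted as 1, and counts above 1 were found at 0.140% to 1.23% of positions. Windows were built from RefSeq genes of GRCm38. The gene table has no strand, so strand came from the RefSeq promoter table, which covered 16456 of 20661 genes; the other 4205, chromosome 18 among them, gave no window. The 5' ends that excluded a window were listed starts, gene starts by strand, and both ends of every gene without a strand. Gene ends are those of the whole gene span, so alternative polyadenylation sites inside a gene were not separated.

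Densities were compared over libraries with two-sided exact sign-flip permutation tests and, across tissues, one-sided exact permutation tests, adjusted over 17 tests. SSB and AP libraries of the same sample were paired, as the labels state. Windows were tested with edgeR 4.0.16 (quasi-likelihood, TMM, at least 10 positions over the libraries) and, as an alternative, DESeq2 1.42.0 (likelihood ratio test on library size), in R 4.3.3. Densities were computed with pandas 2.3.3 and numpy 2.4.6 under Python 3.11.15, correlated over windows with scipy 1.17.1 and drawn with matplotlib 3.10.9. The scripts were tested on simulated data. Named windows were the 10 with most positions per assay, the 5 of smallest p in each edgeR fit (in each direction between assays) and the 3 members of each list with most positions. The replicate number was checked as a pairing: over tissues, replicate differences correlated at -0.03 to 0.05. SSB and AP libraries of the same sample correlated no more (-0.02 to 0.02), so at these counts the check could not show a pairing, and the number was a block in alternatives only. Depth was 225011 to 1041983 positions (SSB) and 460719 to 963258 (AP). Alternatives were other scaling regions, window widths, exclusion rules, summed counts, positions seen in a single library, equal depth, leaving out windows or samples, and other tests. The SSB against AP contrasts, the 3' minus 5' difference across tissues and the exclusion by genes with a strand only were added after seeing the data. The AATAAA search was not run, since no genome sequence was used here.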

Additional observations from a re-analysis of the deposited data

Results flagged for a closer look

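The following 4 results were picked out because the same contrast differed between lesions or tissues by a test of the difference itself, and all 4 tests were added after seeing the data. The sense minus antisense contrast of SSBs exceeded that of AP sites by 0.16 on the log2 scale, in 12 of 12 samples. The 3' minus 5' contrast was lower for SSBs than for AP sites by a log2 difference of -0.49, in 12 of 12 samples. The upstream minus downstream contrast was lower for SSBs, with a log2 difference of -0.0455, in 9 of 12 samples, and this was the only one of the 4 that lost its call under an alternative. The 3' minus 5' difference of SSBs varied across tissues, with 0.963 of its variance between them. No tissue group was large enough for a search for single deviating libraries.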

How the results depend on the processing

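Of 462 values of 22 results under an alternative, 423 stayed the same, and 13 results did so under every alternative. For contrasts this meant the same direction and side of the threshold, and for densities a shift of less than the SD. For the window fits it meant 0 calls, as in the main fits. The 5 to 10 kb scaling cancels in upstream minus downstream and in sense minus antisense, so those values could not change under it. The SSB density of 1.30 moved to 1.15 with scaling to 5 to 10 kb away, 1.27 with 500 bp on each side, 1.32 with protein-coding 5' ends only or with 5' ends of genes with a strand only, 1.25 in windows over 2 kb from other 3' ends and 1.27 without the 1% of windows with most positions. The AP density of 1.38 moved to 1.22, 1.33, 1.33 and 1.36 with the 5 to 10 kb scaling, 500 bp, windows over 2 kb from other 3' ends and without the top 1%. With 5 to 10 kb scaling the SSB share between tissues passed the threshold at 0.799, SSB long minus short genes lost its call at -0.0302, and SSB against AP in that contrast reversed to 0.098. With 5' ends 5 kb away, long minus short reversed to 0.0150 (SSB), 0.0036 (AP) and 0.0114 (SSB against AP), and upstream minus downstream, SSB against AP, lost its call at -0.0366. In windows over 2 kb from other 3' ends, long minus short reversed to 0.0142 (SSB) and 0.0219 (AP, unadjusted exact p = 0.0381). It lost its call with summed counts at -0.0302 (SSB), and without the top 1% at -0.00914 (SSB) and -0.00865 (AP). The cause of these shifts was not tested.

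Leaving out each sample in turn gave -0.0544 to -0.0384 for upstream minus downstream, SSB against AP (exact p 0.0107 to 0.0527), -0.0410 to -0.0260 for SSB long minus short, -0.0149 to 0.0054 for long minus short, SSB against AP, -0.0057 to 0.0077 for AP sense minus antisense, and 0 to 4 windows called between SSB and AP. With the replicate number as a block, run for the tissue comparisons and the window fits, the share of variance of the 3' density between tissues was 0.544 (SSB) and 0.379 (AP). That of the 3' minus 5' difference was 0.968 (SSB, exact p = 0.00556) and 0.486 (AP), and 0 windows were called in all 3 fits, with 19, 78 and 894 under 0.05 before adjustment. A median of 7 SSB and 11 AP positions per window over 12 libraries limits what a single window can show, and alternative ends, strands and sequence could not be followed further here.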
